A study of Homo sapiens with 20 samples.

Results

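The kinesins are microtubule motor proteins, and the 41 human KIF genes measured here were taken from 19775 genes by their symbols. A gene counted as a member when its symbol was KIF followed by a number and an optional letter, or KIFC1, KIFC2 or KIFC3, and antisense genes were left out. Each gene was represented by 1 probe set, the one with the highest mean over the 20 arrays. No difference between groups entered that choice of probe set. The members were split by lists into 12 mitotic kinesins, 15 transport kinesins and 14 others. These others were put on neither side of the contrast of mitotic with transport kinesins. Members and lists were chosen with earlier results of these data known. The others include KIF2A, a kinesin of spindle poles.

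The arrays held total RNA of MII cells, also called MCF10-T1k, a human mammary epithelial line transformed with RAS and grown in culture. The series asked what TAZ, a transcriptional co-activator encoded by WWTR1, does in Wnt signalling. All cells received siRNA by lipofection, and each of the 5 groups had 4 arrays, labelled replicates A to D. The siAPC/siTAZ cells received siRNA against APC together with siRNA against TAZ, and the siAPC cells received siRNA against APC. The sibcat/siTAZ cells received siRNA against beta-catenin together with siRNA against TAZ, and the sibcat cells received siRNA against beta-catenin. The siGFP cells received the control siRNA. No group here received TAZ siRNA without another depletion, and no untransfected cells were included. The replicates are called biological, with no word on whether they were separate cultures, so p-values measure the spread between these arrays. Every group carries the RAS transformation, and the sources used here do not give the siRNA sequences, their dose or the time to harvest.

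Kinesins use the energy of ATP to move along microtubules or to take their ends apart. Mitotic kinesins build the bipolar spindle, place chromosomes on it and complete the cut between daughter cells, and in dividing cells their mRNAs are made mainly from late S phase to mitosis. Transport kinesins carry vesicles, mitochondria, mRNAs and ciliary components, and are used by cells that divide and cells that do not. APC belongs to the complex that marks beta-catenin for destruction, and the APC protein is itself carried by the kinesin KIF3A/KIF3B through its adaptor KIFAP3.

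Many genes of late cell cycle phases have, near their start, a cell cycle genes homology region (CHR, core letters TTTGAA or TTCGAA) and CCAAT boxes, the letters bound by NF-Y. Both were searched on both strands in the 300 bases from 250 before to 50 after each start in the RefSeq table of build GRCh38.p14, which held 33 of the 41 members. The core or its reverse complement stood in 10 of 12 mitotic, 1 of 11 transport and 1 of 10 other kinesin genes, against 16.4% of 35116 windows and 19.5% of 27305 genes in the table. CCAAT or ATTGG stood in 10 of 12 mitotic, 4 of 11 transport and 3 of 10 other kinesin genes, against 34.6% of windows and 39.7% of genes. Both stood together in 9 of 12 mitotic, 1 of 11 transport and 1 of 10 other kinesin genes, against 6.38% of windows and 7.85% of genes. These are matches of letters, not bound sites. The transport gene with both was KIF5B, and the other gene with both was KIF24. KIF13B, KIF19, KIF21B, KIF26B, KIF27, KIF5A, KIFC2 and KIFC3 had no window in the table.

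A few windows are printed 5′ to 3′ on the strand of the gene, with the matched letters in capitals. KIF4A (chrX:70289854-70290153, plus strand), KIF23 (chr15:69414099-69414398, plus strand) and KIF18B (chr17:44947724-44948023, minus strand) show both elements. KIF15 (chr3:44761544-44761843, plus strand) shows a core alone, and KIF20A (chr5:138178862-138179161, plus strand) shows a pair of CCAAT boxes with no core. KIF2C (chr1:44739587-44739886, plus strand) is the mitotic gene with neither. KIF1C (chr17:4997700-4997999, plus strand) and KIF3C (chr2:25982448-25982747, minus strand) are transport genes with large changes and neither element.
KIF4A: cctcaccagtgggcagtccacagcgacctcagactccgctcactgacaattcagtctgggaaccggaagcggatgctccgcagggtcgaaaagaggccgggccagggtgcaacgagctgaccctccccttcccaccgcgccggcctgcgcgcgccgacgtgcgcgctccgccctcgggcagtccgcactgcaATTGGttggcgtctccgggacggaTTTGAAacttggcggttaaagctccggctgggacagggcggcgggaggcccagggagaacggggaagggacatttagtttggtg
KIF23: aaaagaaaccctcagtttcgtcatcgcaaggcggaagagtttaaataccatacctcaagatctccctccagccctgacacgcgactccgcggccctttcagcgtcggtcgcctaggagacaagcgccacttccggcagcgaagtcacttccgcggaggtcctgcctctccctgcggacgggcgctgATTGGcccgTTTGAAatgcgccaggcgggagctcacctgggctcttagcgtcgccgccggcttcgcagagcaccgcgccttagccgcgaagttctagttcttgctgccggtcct
KIF18B: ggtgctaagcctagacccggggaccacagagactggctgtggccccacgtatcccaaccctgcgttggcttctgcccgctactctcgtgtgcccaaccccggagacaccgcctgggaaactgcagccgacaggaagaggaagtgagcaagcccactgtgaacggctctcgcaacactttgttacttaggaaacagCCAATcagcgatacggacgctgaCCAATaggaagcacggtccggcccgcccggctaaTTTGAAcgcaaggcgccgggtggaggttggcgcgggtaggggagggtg
KIF15: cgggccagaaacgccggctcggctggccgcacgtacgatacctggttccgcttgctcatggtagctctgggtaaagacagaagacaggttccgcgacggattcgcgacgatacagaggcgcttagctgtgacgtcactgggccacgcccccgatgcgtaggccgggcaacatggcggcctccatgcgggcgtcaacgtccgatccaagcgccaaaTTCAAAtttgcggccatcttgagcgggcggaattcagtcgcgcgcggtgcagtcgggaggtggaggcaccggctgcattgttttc
KIF20A: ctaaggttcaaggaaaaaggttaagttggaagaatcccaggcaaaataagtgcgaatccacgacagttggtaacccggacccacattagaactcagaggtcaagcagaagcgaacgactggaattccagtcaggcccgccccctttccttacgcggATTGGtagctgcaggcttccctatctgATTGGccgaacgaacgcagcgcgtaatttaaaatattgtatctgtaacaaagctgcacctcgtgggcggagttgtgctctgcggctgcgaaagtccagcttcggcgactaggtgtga
KIF2C: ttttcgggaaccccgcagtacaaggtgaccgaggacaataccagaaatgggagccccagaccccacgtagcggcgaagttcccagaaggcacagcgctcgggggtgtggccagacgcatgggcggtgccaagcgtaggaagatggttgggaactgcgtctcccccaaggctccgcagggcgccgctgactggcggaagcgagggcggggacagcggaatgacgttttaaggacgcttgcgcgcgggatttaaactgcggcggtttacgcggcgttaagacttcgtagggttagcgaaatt
KIF1C: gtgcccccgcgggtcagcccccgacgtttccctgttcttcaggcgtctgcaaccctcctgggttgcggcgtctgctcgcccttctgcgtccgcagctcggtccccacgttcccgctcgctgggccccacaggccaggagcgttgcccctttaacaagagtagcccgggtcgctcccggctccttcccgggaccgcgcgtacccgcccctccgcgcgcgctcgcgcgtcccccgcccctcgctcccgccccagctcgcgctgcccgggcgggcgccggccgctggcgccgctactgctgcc
KIF3C: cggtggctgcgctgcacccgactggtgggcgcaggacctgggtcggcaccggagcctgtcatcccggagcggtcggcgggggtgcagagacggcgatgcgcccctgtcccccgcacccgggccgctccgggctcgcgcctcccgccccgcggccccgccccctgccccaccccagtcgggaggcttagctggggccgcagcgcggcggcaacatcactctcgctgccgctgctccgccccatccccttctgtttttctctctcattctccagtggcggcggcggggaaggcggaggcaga
The core began 34 bases before the start in KIF4A, 55 before it in KIF23 and 35 before it in KIF15, and at base 3 of the transcript in KIF18B. The KIF4A and KIF23 cores lay downstream of their reversed CCAAT box, which began 58 and 64 bases before the start.

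Signals are log2 values as deposited, and differences between groups are on that log2 scale with the standard error (SE) of limma's fit over all 20 arrays. A gene is said to rise or fall where limma's adjusted p over the 19775 genes was under 0.05. With 4 arrays a group, the number of arrays limits the precision. The depletions moved many genes, so counts of kinesins and of related genes are set beside the share of all genes called in the same direction. WWTR1 differed by -2.67 in siAPC/siTAZ against siAPC and by -2.21 in sibcat/siTAZ against sibcat, APC by -0.88 in siAPC against siGFP and CTNNB1, which encodes beta-catenin, by -1.34 in sibcat against siGFP. WWTR1 also fell without TAZ siRNA, by 0.41 in siAPC (adjusted p = 2.96e-06) and by 0.43 in sibcat (adjusted p = 2e-06), both against siGFP. With TAZ siRNA, APC differed by a further -0.46 in siAPC/siTAZ against siAPC and CTNNB1 by a further -1.41 in sibcat/siTAZ against sibcat. Array medians lay between 5.07 and 5.11. All 6 measured mammary epithelial markers (keratins, EPCAM and CDH1) were above the array median, from a mean of 8.90 to 12.5, as were 2 of 3 leukocyte (CD3E and CD14), 1 of 3 endothelial (PECAM1) and 2 of 4 fibroblast markers (COL1A1 and DCN). Means ranged between 2.70 and 6.88 for the leukocyte, 3.04 and 6.18 for the endothelial and 3.88 and 12.2 for the fibroblast markers, so the highest fibroblast marker was within the epithelial range.

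The mitotic kinesins were ordered the same way at both ends: all 12 were highest in sibcat/siTAZ and lowest in siAPC/siTAZ by group mean. No transport kinesin and 2 of 14 others (KIF9 and KIF25) had that pattern, against 1590 of 19775 genes, which is 8.04%. The full order sibcat/siTAZ, sibcat, siGFP, siAPC, siAPC/siTAZ from high to low held for 8 of the 12, and in KIF2C, KIF18A, KIF23 and KIFC1 siAPC stood above siGFP. Averaged over the 12 genes, each array's signal was 7.54 ± 0.0331 in siAPC/siTAZ, 8.01 ± 0.0247 in siAPC, 8.92 ± 0.0113 in sibcat/siTAZ, 8.61 ± 0.026 in sibcat and 8.13 ± 0.036 in siGFP (SD, n = 4 each). The average of the 15 transport kinesins ran the other way and less widely. It was 7.43 ± 0.0178 in siAPC/siTAZ, 7.32 ± 0.0233 in siAPC, 7.04 ± 0.0432 in sibcat/siTAZ, 7.09 ± 0.0222 in sibcat and 7.15 ± 0.0475 in siGFP. The sibcat arrays overlapped those of siGFP and those of sibcat/siTAZ in this average. Gene by gene, only KIF13A and KIF5B of the 15 had the reversed full order, so the average does not describe each transport kinesin. The mitotic minus the transport average was therefore 0.11 ± 0.025 in siAPC/siTAZ, 0.69 ± 0.0399 in siAPC, 1.88 ± 0.0327 in sibcat/siTAZ, 1.52 ± 0.0301 in sibcat and 0.98 ± 0.034 in siGFP. Only its changes between groups can be read, since levels of different probe sets have no common scale. In total RNA of a culture, fewer cells in mitosis and less of an mRNA per cell cannot be told apart.

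**Figure D1:**
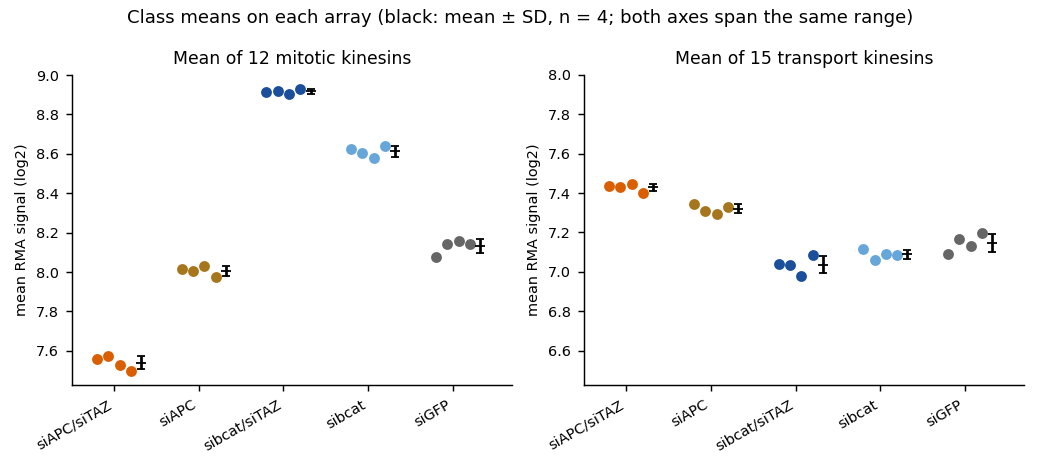
Mean log2 signal of the 12 mitotic kinesins (left) and the 15 transport kinesins (right) on each of the 20 arrays, by group, with mean ± SD in black (n = 4). The mitotic means run from 7.50 on the lowest siAPC/siTAZ array to 8.93 on the highest sibcat/siTAZ array, and no 2 groups overlap. In the transport means the sibcat arrays overlap those of siGFP and those of sibcat/siTAZ. Both axes span the same range.

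Whether TAZ siRNA acts alike in APC-depleted and beta-catenin-depleted cells was read from each combined depletion against its single depletion. The combined groups also had less mRNA of their first target, by -0.46 for APC in siAPC/siTAZ and -1.41 for CTNNB1 in sibcat/siTAZ. Loss of TAZ and deeper depletion of the first target cannot be told apart in these comparisons. What is called a TAZ siRNA effect is the whole difference. In siAPC/siTAZ against siAPC cells, 11 of 12 mitotic kinesins fell and none rose, where 22.8% of all genes fell and 20.7% rose. Their median difference was -0.51, against -0.03 for all genes, and KIF18A was the exception at -0.05 (95% interval -0.17 to 0.08). In sibcat/siTAZ against sibcat cells, 10 of 12 rose and none fell, where 18.0% of all genes rose and 13.7% fell. The median was 0.33, against 0.01 for all genes, and KIF20B at 0.18 and KIF22 at 0.07 did not pass. These comparisons share no array. Of the mitotic genes 9 of 12 fell in the first and rose in the second, as did no transport kinesin, 2 of 14 others and 2.29% of all genes.

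The difference between the TAZ siRNA effects was tested directly, as the effect in the siAPC background minus that in the sibcat background. The deeper depletion of APC and CTNNB1 in the combined groups enters this difference too. All 12 mitotic kinesins passed with a negative difference, where 15.5% of all genes did and 12.2% had a positive one. The median was -0.79, against -0.02 for all genes, from -1.19 ± 0.083 for KIF4A (adjusted p = 1.62e-09) to -0.37 ± 0.100 for KIF20B (adjusted p = 0.00773). Among transport kinesins 7 of 15 passed with a positive difference and none with a negative one, where 12.2% and 15.5% of all genes did. Their median of 0.03 had no stable sign: it was between -0.0067 and 0.095 with 1 array left out, negative without sibcat/siTAZ replicate C, and 0.11 to 0.25 with other probe sets or low-signal filters. Leaving out single arrays ended 2 of the 23 calls made among kinesins here, those of KIF24 and KIF3A, and none of the mitotic ones. The KIF24 call was lost with any of 13 arrays left out (adjusted p 0.0501 to 0.101): siGFP A and B, all siAPC replicates, siAPC/siTAZ A and D, sibcat B, C and D, and sibcat/siTAZ B and D. The KIF3A call was lost without siAPC A or D, siAPC/siTAZ D, sibcat B, or sibcat/siTAZ A or B (adjusted p 0.0561 to 0.068).

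**Figure D2:**
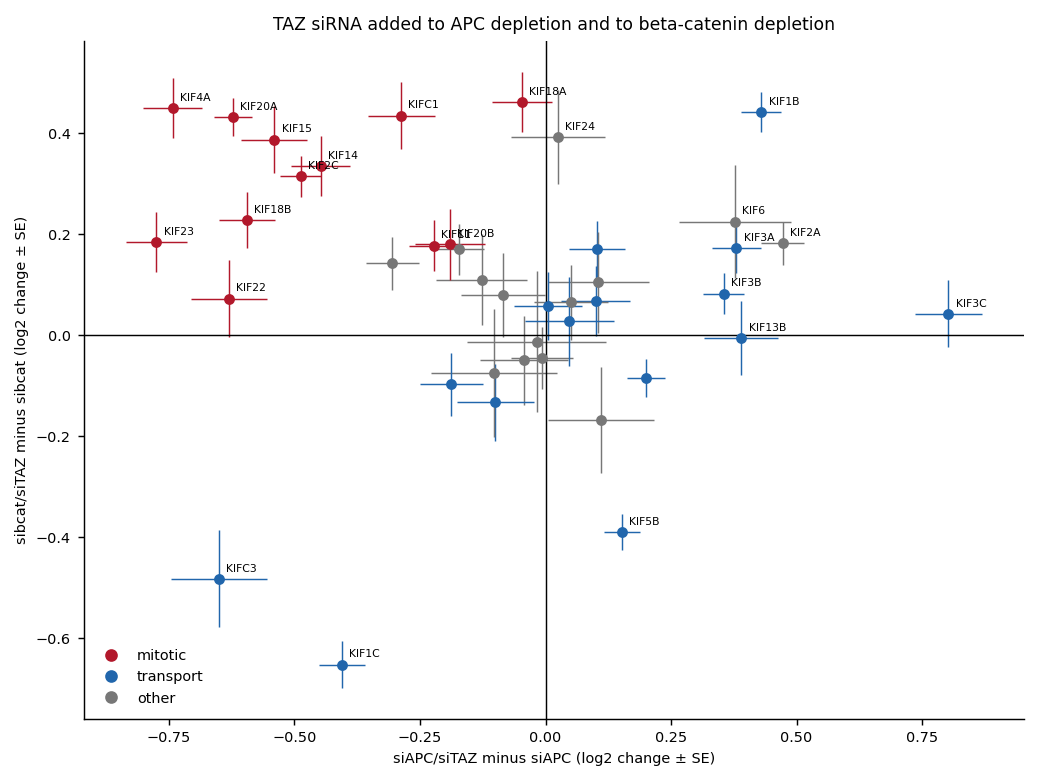
Each point is a kinesin gene, with the log2 change of siAPC/siTAZ against siAPC on the horizontal axis and of sibcat/siTAZ against sibcat on the vertical axis (bars: SE). The 12 mitotic kinesins (red) all lie left of zero and above it, while transport (blue) and other (grey) kinesins lie on both sides of each axis; KIF1B and KIF1C keep their sign in both.

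Motors that set up the spindle act first in cell division and include KIF11, which slides antiparallel microtubules apart to separate the poles. KIF11 read 8.04, 8.13, 8.02 and 8.12 on the siAPC/siTAZ arrays and 8.23, 8.28, 8.42 and 8.27 on the siAPC arrays. It read 9.02, 9.05, 9.05 and 9.03 in sibcat/siTAZ, 8.94, 8.88, 8.72 and 8.90 in sibcat and 8.80, 8.84, 8.84 and 8.73 in siGFP. All 8 arrays with APC siRNA were below all 12 others, the siAPC/siTAZ arrays were below the siAPC arrays, and the sibcat and siGFP arrays overlapped. KIF11 fell by 0.50 ± 0.050 in siAPC against siGFP (adjusted p = 7.54e-08) and by a further 0.22 ± 0.050 in siAPC/siTAZ (adjusted p = 0.00102). In sibcat it was 0.06 from siGFP (adjusted p = 0.429), and it rose by 0.18 ± 0.050 in sibcat/siTAZ against sibcat (adjusted p = 0.00924).

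KIF15, which holds the poles apart beside KIF11, averaged 5.84 ± 0.15 in siAPC/siTAZ, 6.38 ± 0.060 in siAPC, 7.45 ± 0.092 in sibcat/siTAZ, 7.06 ± 0.029 in sibcat and 6.63 ± 0.097 in siGFP (SD, n = 4 each). Its 5 groups did not overlap, and its difference with TAZ siRNA was -0.54 ± 0.066 in the siAPC background and 0.39 ± 0.066 in the sibcat background. KIFC1, a minus-end-directed motor that focuses spindle poles, averaged 6.998 ± 0.057, 7.29 ± 0.068, 8.10 ± 0.12, 7.67 ± 0.093 and 7.20 ± 0.13 in the same order of groups. It rose in sibcat (0.47), rose again in sibcat/siTAZ (0.44) and fell in siAPC/siTAZ against siAPC (-0.29), while its siGFP arrays overlapped those of siAPC and of siAPC/siTAZ.

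KIF2C, which removes tubulin from microtubule ends at centromeres, was the mitotic kinesin that rose in siAPC. It read 8.91, 8.96, 8.88 and 8.90 in siAPC/siTAZ and 9.46, 9.43, 9.34 and 9.37 in siAPC. The sibcat/siTAZ arrays gave 10.07, 10, 9.99 and 10.06, the sibcat arrays 9.76, 9.67, 9.75 and 9.68 and the siGFP arrays 9.15, 9.24, 9.10 and 9.21. No 2 groups overlapped, and both single depletions were above siGFP, by 0.23 ± 0.041 in siAPC (adjusted p = 0.000136) and 0.54 ± 0.041 in sibcat (adjusted p = 1.98e-09). With TAZ siRNA it fell by 0.49 in the siAPC background and rose by 0.32 in the sibcat background. A further probe set of KIF2C gave 0.15 in siAPC against siGFP (adjusted p = 0.0425), -0.49 in siAPC/siTAZ against siAPC and 0.21 in sibcat/siTAZ against sibcat.

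Motors that act on chromosomes and microtubule plus ends included KIF4A, a chromokinesin that works with condensin and, with PRC1, sets the length of the midzone. KIF4A read 6.95, 7.03, 7.12 and 6.86 in siAPC/siTAZ and 7.74, 7.79, 7.72 and 7.68 in siAPC. It read 9.02, 8.91, 8.89 and 8.88 in sibcat/siTAZ, 8.45, 8.41, 8.56 and 8.48 in sibcat and 7.83, 7.95, 8.09 and 7.98 in siGFP. The 5 groups were fully apart, with the siAPC/siTAZ arrays lowest and the sibcat/siTAZ arrays highest. TAZ siRNA went with a fall of 0.74 ± 0.059 in the siAPC background (1.67-fold, adjusted p = 2.17e-09) and a rise of 0.45 ± 0.059 in the sibcat background (1.37-fold, adjusted p = 4.49e-06). Transcripts of its near-identical copy KIF4B may add to this signal.

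KIF18A, which damps chromosome movement at the metaphase plate, departed from the other mitotic genes in the APC-depleted cells. Its arrays read 7.19, 7.08, 7.19 and 7.15 in siAPC/siTAZ and 7.19, 7.27, 7.14 and 7.20 in siAPC. They read 8.06, 8.29, 8.23 and 8.04 in sibcat/siTAZ, 7.84, 7.73, 7.59 and 7.61 in sibcat and 7.14, 7.15, 7.21 and 7.15 in siGFP. The siAPC/siTAZ, siAPC and siGFP arrays overlapped one another, and the arrays with beta-catenin siRNA were above all of them. KIF18A rose by 0.53 ± 0.060 in sibcat (adjusted p = 5.39e-07) and by a further 0.46 ± 0.060 in sibcat/siTAZ (adjusted p = 3.93e-06).

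KIF18B, which shortens astral microtubules, averaged 7.74 ± 0.12 in siAPC/siTAZ, 8.33 ± 0.071 in siAPC, 9.06 ± 0.079 in sibcat/siTAZ, 8.83 ± 0.029 in sibcat and 8.39 ± 0.043 in siGFP. Its siAPC and siGFP arrays overlapped, with siAPC at -0.06 from siGFP (adjusted p = 0.47), and it fell by 0.60 ± 0.056 in siAPC/siTAZ against siAPC (adjusted p = 2.4e-08). KIF22, a chromokinesin that pushes chromosome arms from the poles, averaged 6.31 ± 0.14, 6.94 ± 0.074, 7.52 ± 0.090, 7.45 ± 0.12 and 7.30 ± 0.12 in the same order. It fell in siAPC (-0.36) and in siAPC/siTAZ against siAPC (-0.63), while its sibcat/siTAZ, sibcat and siGFP arrays overlapped one another.

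Motors of the midzone and of cytokinesis included KIF20A, which brings the chromosomal passenger complex with Aurora B to the midzone. Its arrays gave 9.28, 9.17, 9.22 and 9.14 in siAPC/siTAZ and 9.86, 9.82, 9.81 and 9.81 in siAPC. They gave 11.11, 11.15, 11.15 and 11.23 in sibcat/siTAZ, 10.76, 10.71, 10.73 and 10.71 in sibcat and 10.11, 10.13, 10.15 and 10.19 in siGFP. The groups did not overlap, with siAPC/siTAZ lowest and sibcat/siTAZ highest. KIF20A fell by 0.32 ± 0.037 in siAPC and by a further 0.62 ± 0.037 in siAPC/siTAZ, and rose by 0.58 ± 0.037 in sibcat and by a further 0.43 ± 0.037 in sibcat/siTAZ. The adjusted p values were 6.58e-07, 3.17e-11, 1.79e-10 and 1.54e-08 in that order.

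KIF23, the motor of centralspindlin, which bundles midzone microtubules, showed the steepest fall with TAZ siRNA in APC-depleted cells among the 12. The siAPC/siTAZ arrays read 7.80, 7.89, 7.80 and 7.98 and the siAPC arrays 8.72, 8.64, 8.66 and 8.55. The sibcat/siTAZ arrays read 9.47, 9.57, 9.38 and 9.52, the sibcat arrays 9.29, 9.37, 9.14 and 9.40 and the siGFP arrays 8.53, 8.60, 8.50 and 8.47. The siAPC/siTAZ arrays were below every other array, while the siAPC and siGFP arrays overlapped and the sibcat/siTAZ and sibcat arrays overlapped. KIF23 fell by 0.78 ± 0.060 in siAPC/siTAZ against siAPC (1.71-fold, adjusted p = 1.48e-09) and rose by 0.78 ± 0.060 in sibcat against siGFP (adjusted p = 2.79e-09). Its rise of 0.19 ± 0.060 in sibcat/siTAZ against sibcat (adjusted p = 0.0227) did not pass without sibcat replicate C, sibcat/siTAZ replicate B or sibcat/siTAZ replicate D (adjusted p 0.0586 to 0.0998).

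KIF14, which gathers citron kinase at the midbody, averaged 7.88 ± 0.075 in siAPC/siTAZ, 8.33 ± 0.13 in siAPC, 9.52 ± 0.073 in sibcat/siTAZ, 9.18 ± 0.073 in sibcat and 8.53 ± 0.031 in siGFP. It moved by -0.45 and 0.34 with TAZ siRNA in the siAPC and sibcat backgrounds, and a further probe set gave -0.55 and 0.43. Its fall of 0.20 in siAPC (adjusted p = 0.0114) was lost without siAPC replicate D (adjusted p = 0.0548), and the further probe set fell by 0.25 there (adjusted p = 0.00189). KIF20B, which acts late in cytokinesis, averaged 7.51 ± 0.079, 7.70 ± 0.11, 8.57 ± 0.036, 8.39 ± 0.16 and 7.76 ± 0.084 in the same order. It rose by 0.64 ± 0.070 in sibcat, and its fall of 0.19 in siAPC/siTAZ against siAPC (adjusted p = 0.0349) was lost without siAPC replicate B or C or siAPC/siTAZ replicate C or D (adjusted p 0.0513 to 0.14).

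**Figure D3:**
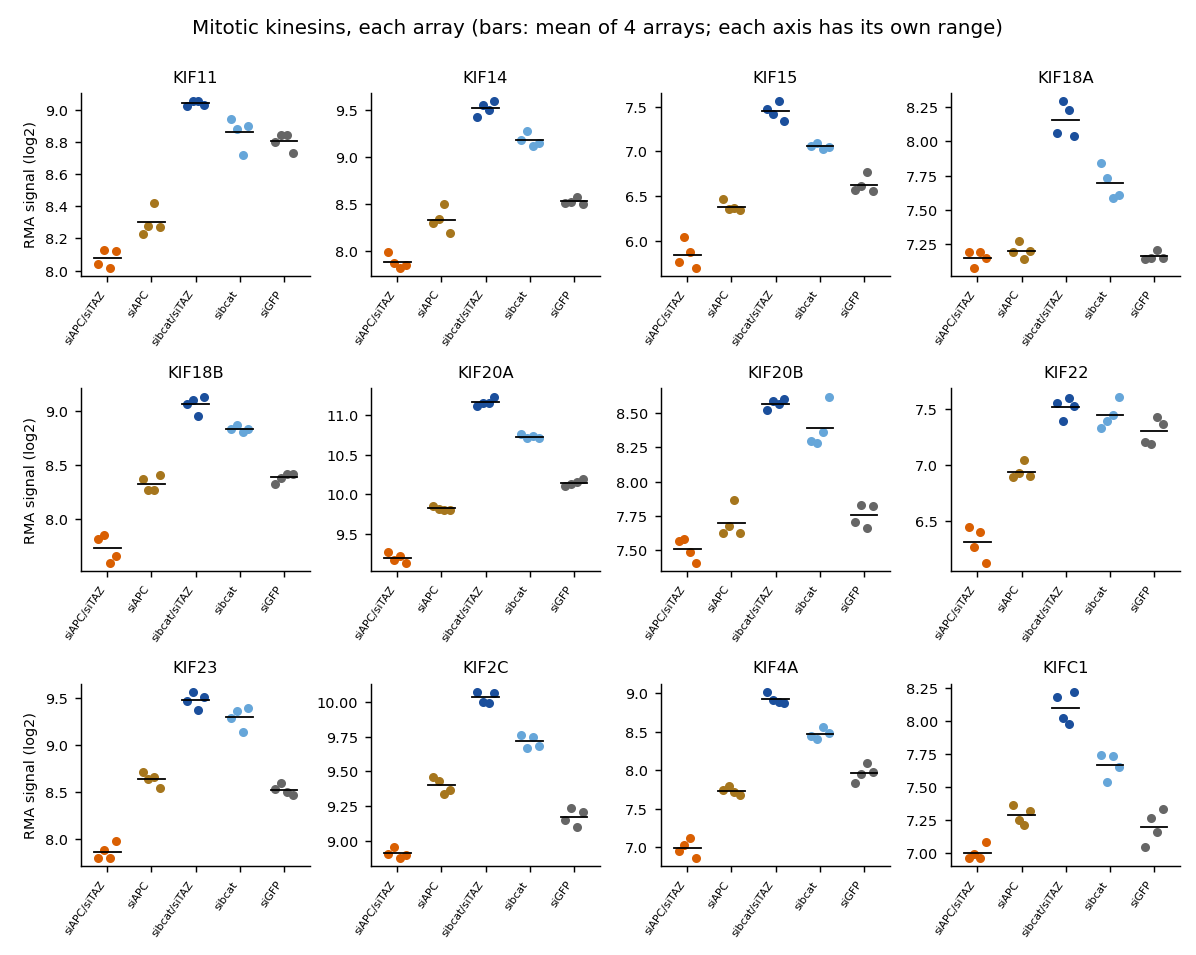
Log2 signal of each of the 12 mitotic kinesins on all 20 arrays, by group, with a bar at the group mean (each panel has its own vertical range). In all 12 panels the sibcat/siTAZ mean is the highest and the siAPC/siTAZ mean the lowest, and KIF18A has siAPC/siTAZ, siAPC and siGFP at one level, between 7.08 and 7.27.

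The single depletions were set against siGFP to ask what losing APC or beta-catenin does alone, and both comparisons use the same siGFP arrays. In siAPC, 6 of 12 mitotic kinesins fell (KIF11, KIF22, KIF20A, KIF15, KIF4A and KIF14), KIF2C rose and 5 did not pass, where 18.7% of all genes fell and 21.3% rose. The median was -0.13, against -0.0025 for all genes. In sibcat, 10 of 12 rose and none fell, where 21.4% of all genes rose and 15.7% fell, with a median of 0.52 against 0 for all genes. The sizes in sibcat ran from 0.06 for KIF11 to 0.78 for KIF23, and KIF11 and KIF22 (0.15) were the members that did not pass.

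Against siGFP, the median change of the mitotic genes was larger in each combined depletion than in its single depletion. This did not hold for every member. By group mean, KIF2C, KIF18A, KIF23 and KIFC1 stood above siGFP in siAPC and below it in siAPC/siTAZ, though of these only KIF2C passed in siAPC. In siAPC/siTAZ, 11 of 12 fell, with KIF18A at -0.01, where 24.3% of all genes fell and 23.0% rose, and the median was -0.66 against -0.04 for all genes. The largest falls were 0.99 for KIF22 (1.98-fold), 0.97 for KIF4A and 0.94 for KIF20A, and the fall of 0.20 in KIFC1 was lost without siGFP replicate B or D (adjusted p 0.0547 and 0.0752). In sibcat/siTAZ all 12 rose by the probe sets used, where 25.4% of all genes rose and 19.5% fell. The median was 0.88 against -0.01 for all genes. A further probe set of KIF20B fell in this comparison. The rises ran from 0.22 for KIF22 to 1.02 for KIF20A (2.02-fold), and that of KIF22 (adjusted p = 0.0251) was lost when any of 5 arrays was left out (adjusted p up to 0.0853): siGFP replicates A and B and sibcat/siTAZ replicates A, C and D. In siAPC against sibcat, all 12 were lower, where 17.5% of all genes were lower and 16.3% higher, with a median of -0.61 against 0.0025, from -0.90 for KIF20A to -0.32 for KIF2C.

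Genes that work with the mitotic kinesins or mark dividing cells were read from lists chosen with earlier results of these data known. Of 20 spindle and midzone partners, none rose and 18 fell in siAPC/siTAZ against siAPC, where 20.7% and 22.8% of all genes did, with a median of -0.52 against -0.03 for all genes. In sibcat/siTAZ against sibcat 14 rose and 1 fell, where 18.0% and 13.7% did, with a median of 0.22 against 0.01. ANLN, a scaffold of the contractile ring, fell by 1.49 ± 0.062 in the first and was -0.16 in the second (adjusted p = 0.0621). CEP55, which recruits the machinery that cuts the midbody, fell by 1.00 and rose by 0.13. PRC1, the midzone bundler that binds KIF4A, fell in both, by 0.84 and 0.16. CENPE, itself a kinesin of kinetochores whose symbol lies outside the naming rule, fell by 0.51 and rose by 0.66. In sibcat against siGFP 18 of the 20 rose and none fell, where 21.4% and 15.7% of all genes did. In siAPC 6 rose and 3 fell, where 21.3% and 18.7% did.

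Of 8 proliferation markers, which include genes of S phase, 6 fell and 1 rose in siAPC against siGFP, where 18.7% and 21.3% of all genes did. All 8 rose in sibcat against siGFP, where 21.4% did. In siAPC/siTAZ against siAPC 7 fell, where 22.8% did, with a median of -0.66, led by MCM6, a subunit of the replicative helicase, at -1.51 ± 0.043 (adjusted p = 5.08e-16). In sibcat/siTAZ against sibcat 4 rose and 1 (TYMS) fell, where 18.0% and 13.7% did, with a median of 0.17, and MCM6 was 0.01 (adjusted p = 0.903) where MKI67, the antigen of dividing cells, rose by 0.28. The share of dividing cells was not measured, and its part in the kinesin results was not tested.

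RNA quality was read from the control probe sets of ACTB, as the 3′ minus the 5′ log2 signal, which is larger where RNA is shorter. It was 1.99 ± 0.0839 in siAPC/siTAZ, 1.57 ± 0.0265 in siAPC, 2.04 ± 0.0591 in sibcat/siTAZ, 1.81 ± 0.0535 in sibcat and 1.83 ± 0.0629 in siGFP (SD, n = 4 each). It was thus higher with TAZ siRNA in both backgrounds, and lowest in siAPC. The part of RNA quality in the kinesin changes was not tested.

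Transport kinesins had calls in both directions in each of the comparisons below. In siAPC against siGFP 9 of 15 rose and 3 fell, where 21.3% and 18.7% of all genes did, with a median of 0.18. In sibcat 4 rose and 5 fell, where 21.4% and 15.7% of all genes did, with a median of -0.09. In siAPC/siTAZ against siAPC 7 rose and 3 fell, where 20.7% and 22.8% did, with a median of 0.10. In sibcat/siTAZ against sibcat 3 rose and 3 fell, shares close to the 18.0% and 13.7% of all genes. Their median there, 0.03, was between -0.025 and 0.045 with 1 array left out, and was negative without sibcat/siTAZ replicate D or sibcat replicate B. In siAPC/siTAZ against siGFP 8 rose and 1 fell, where 23.0% and 24.3% of all genes did. The counts in sibcat/siTAZ against siGFP were 2 risen and 6 fallen, where 25.4% and 19.5% of all genes were. In siAPC against sibcat 8 were higher and 1 lower, where 16.3% and 17.5% were. The medians of all genes lay between -0.04 and 0.01. Among these last counts, leaving out single arrays ended the calls of KIF17 in siAPC/siTAZ against siGFP and of KIF17 and KIFC2 in siAPC against sibcat. The first was lost without any of 12 arrays (siGFP A, B and D, every siAPC replicate, siAPC/siTAZ A, B and C, and sibcat/siTAZ A and D; adjusted p 0.051 to 0.184). The second was lost without siAPC A, C or D or sibcat B or D (adjusted p 0.0596 to 0.109), and that of KIFC2 without siAPC B or D or sibcat C (adjusted p 0.0523 to 0.0583).

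KIF1C, which carries dense-core vesicles and integrins in migrating cells, had the largest change of any kinesin against siGFP by a single depletion. It read 8.53, 8.48, 8.49 and 8.57 in siAPC/siTAZ and 8.97, 8.99, 8.92 and 8.81 in siAPC. The sibcat/siTAZ arrays read 7.42, 7.43, 7.33 and 7.34, the sibcat arrays 8, 8.10, 8.08 and 7.95 and the siGFP arrays 7.62, 7.71, 7.67 and 7.69. No groups overlapped, and sibcat/siTAZ was the only group below siGFP. KIF1C rose by 1.25 ± 0.046 in siAPC (2.38-fold, adjusted p = 2.19e-14) and by 0.36 ± 0.046 in sibcat (adjusted p = 2.59e-06). TAZ siRNA went with falls of 0.41 ± 0.046 in the siAPC background (adjusted p = 3.55e-07) and 0.65 ± 0.046 in the sibcat background (adjusted p = 7.37e-10). A further probe set gave 0.51, 0.32, -0.20 and -0.35 in these 4 comparisons, and another, at a mean of 3.58, below the array medians, fell by 0.25 in sibcat against siGFP.

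The kinesin-2 motors KIF3A, KIF3B and KIF3C went different ways. KIF3A, which pairs with KIF3B or KIF3C and drives transport into cilia, read 8.29, 8.39, 8.35 and 8.47 in siAPC/siTAZ and 7.96, 8.01, 8.05 and 7.96 in siAPC. Its arrays read 8.30, 8.35, 8.39 and 8.51 in sibcat/siTAZ, 8.21, 8.26, 8.14 and 8.25 in sibcat and 8.69, 8.78, 8.72 and 8.71 in siGFP. The siGFP arrays were above all others, the siAPC arrays below all others, and the combined groups overlapped each other. KIF3A fell by 0.73 ± 0.048 in siAPC (adjusted p = 1.83e-10) and by 0.51 ± 0.048 in sibcat (adjusted p = 4.96e-08). It rose with TAZ siRNA by 0.38 in the siAPC background and 0.17 in the sibcat background (adjusted p = 1.65e-06 and 0.00879).

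KIF3B read 9.78, 9.84, 9.77 and 9.77 in siAPC/siTAZ, 9.43, 9.44, 9.50 and 9.37 in siAPC, 8.87, 8.94, 8.89 and 8.85 in sibcat/siTAZ, 8.76, 8.80, 8.86 and 8.80 in sibcat and 9.20, 9.19, 9.34 and 9.29 in siGFP. All arrays with beta-catenin siRNA were below the siGFP arrays, and all with APC siRNA were above them. KIF3B rose by 0.18 ± 0.041 in siAPC and by a further 0.36 ± 0.041 in siAPC/siTAZ, and fell by 0.45 ± 0.041 in sibcat (adjusted p = 0.00137, 5.05e-07 and 3.19e-08). In sibcat/siTAZ against sibcat it was 0.08 (adjusted p = 0.151).

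KIF3C read 7.61, 7.46, 7.60 and 7.49 in siAPC/siTAZ and 6.84, 6.56, 6.80 and 6.75 in siAPC. It read 6.46, 6.33, 6.40 and 6.31 in sibcat/siTAZ, 6.35, 6.39, 6.25 and 6.34 in sibcat and 6.01, 6.22, 6.07 and 6.28 in siGFP. The siAPC/siTAZ arrays stood above all 16 others, and the siAPC arrays above the remaining 12. KIF3C rose by 0.59 ± 0.066 in siAPC and by a further 0.80 ± 0.066 with TAZ siRNA (1.74-fold), and in sibcat/siTAZ against sibcat it was 0.04 (adjusted p = 3.66e-07, 3.86e-09 and 0.708). The TAZ siRNA effects differed by 0.76 ± 0.094 (adjusted p = 3.13e-06), the largest such difference among transport kinesins. Its rise of 0.19 in sibcat (adjusted p = 0.0316) was lost without siGFP replicate A or C or sibcat replicate A, B or D (adjusted p 0.0582 to 0.121). KIFAP3, the adaptor that completes the KIF3A/KIF3B motor, fell in siAPC (-0.46) and in sibcat (-0.13) and rose with TAZ siRNA in both backgrounds (0.80 and 0.31), the directions of KIF3A.

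KIF1B, a motor of mitochondria and synaptic vesicle precursors, rose in every depletion by its main probe set. It read 10.26, 10.41, 10.33 and 10.33 in siAPC/siTAZ, 9.89, 9.90, 9.91 and 9.91 in siAPC, 10.39, 10.41, 10.41 and 10.36 in sibcat/siTAZ, 10.02, 9.95, 9.98 and 9.85 in sibcat and 9.48, 9.52, 9.43 and 9.46 in siGFP. The siGFP arrays were below all others and the arrays with TAZ siRNA above all others. The rises were 0.43 ± 0.040 in siAPC, 0.48 in sibcat, 0.43 in siAPC/siTAZ against siAPC and 0.44 in sibcat/siTAZ against sibcat, and the TAZ siRNA effects differed by -0.01 (95% interval -0.13 to 0.11). One further probe set gave 0.46, 0.55, 0.46 and 0.38, while another gave -0.73 in sibcat (adjusted p = 3.17e-10), -0.22 in siAPC/siTAZ against siAPC and -0.53 in sibcat/siTAZ against sibcat (adjusted p = 3.37e-08). A rise in every depletion was therefore seen with 2 of the 4 KIF1B probe sets.

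KIF5B, the conventional kinesin heavy chain of most cells, read 11.42, 11.46, 11.41 and 11.49 in siAPC/siTAZ and 11.32, 11.29, 11.26 and 11.30 in siAPC. Its arrays read 10.48, 10.42, 10.38 and 10.46 in sibcat/siTAZ, 10.87, 10.83, 10.80 and 10.80 in sibcat and 11.15, 11.15, 11.20 and 11.26 in siGFP. All 8 arrays with beta-catenin siRNA lay below the siGFP arrays, and the siAPC and siGFP arrays met at 11.26. KIF5B fell by 0.37 ± 0.036 in sibcat and by a further 0.39 ± 0.036 in sibcat/siTAZ (adjusted p = 1.02e-07 and 4.84e-08), and rose by 0.15 in siAPC/siTAZ against siAPC (adjusted p = 0.00176). Its rise of 0.10 in siAPC (adjusted p = 0.0307) was lost without siGFP replicate A or B or siAPC replicate A, B or D (adjusted p 0.0563 to 0.0904). Both further probe sets fell in sibcat (-0.38 and -0.26) and in sibcat/siTAZ against sibcat (-0.30 and -0.33).

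The remaining transport kinesins are given by their changes. KIF13B, which binds the polarity protein DLG1, fell in siAPC (-0.45) and sibcat (-0.58), and with TAZ siRNA it rose by 0.39 in the siAPC background and was -0.005 from sibcat in the sibcat background (adjusted p = 0.972). KIFC3, a minus-end-directed motor found at adherens junctions, rose in siAPC (0.47) and sibcat (0.39) and fell with TAZ siRNA in both backgrounds (-0.65 and -0.48). KIF13A, a motor of recycling endosomes, rose in siAPC (0.24) and again in siAPC/siTAZ (0.20), and KIF16B, a motor of early endosomes, rose in siAPC (0.28) and fell in sibcat (-0.19). The rise of 0.17 in KIF16B in sibcat/siTAZ against sibcat was lost without sibcat replicate C or D or sibcat/siTAZ replicate D (adjusted p 0.0727 to 0.0939).

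KIF17, KIF1A and KIF5C passed in 1 of the 4 comparisons with a single or TAZ siRNA change, and KIF5A, a neuronal relative of KIF5B, and KIFC2 in none. KIF17 rose by 0.29 in siAPC, at a mean of 4.78 over all arrays, below the array medians. KIF1A, a neuronal vesicle motor, fell by 0.21 in siAPC, a call lost without siGFP replicate A or siAPC replicate B (adjusted p 0.0778 and 0.0806). KIF5C, another neuronal relative of KIF5B, fell by 0.19 in siAPC/siTAZ against siAPC, a call lost without siAPC replicate A or siAPC/siTAZ replicate B (adjusted p 0.0739 and 0.0744). Its means in these groups, 4.36 in siAPC/siTAZ and 4.545 in siAPC, were below the array medians.

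**Figure D4:**
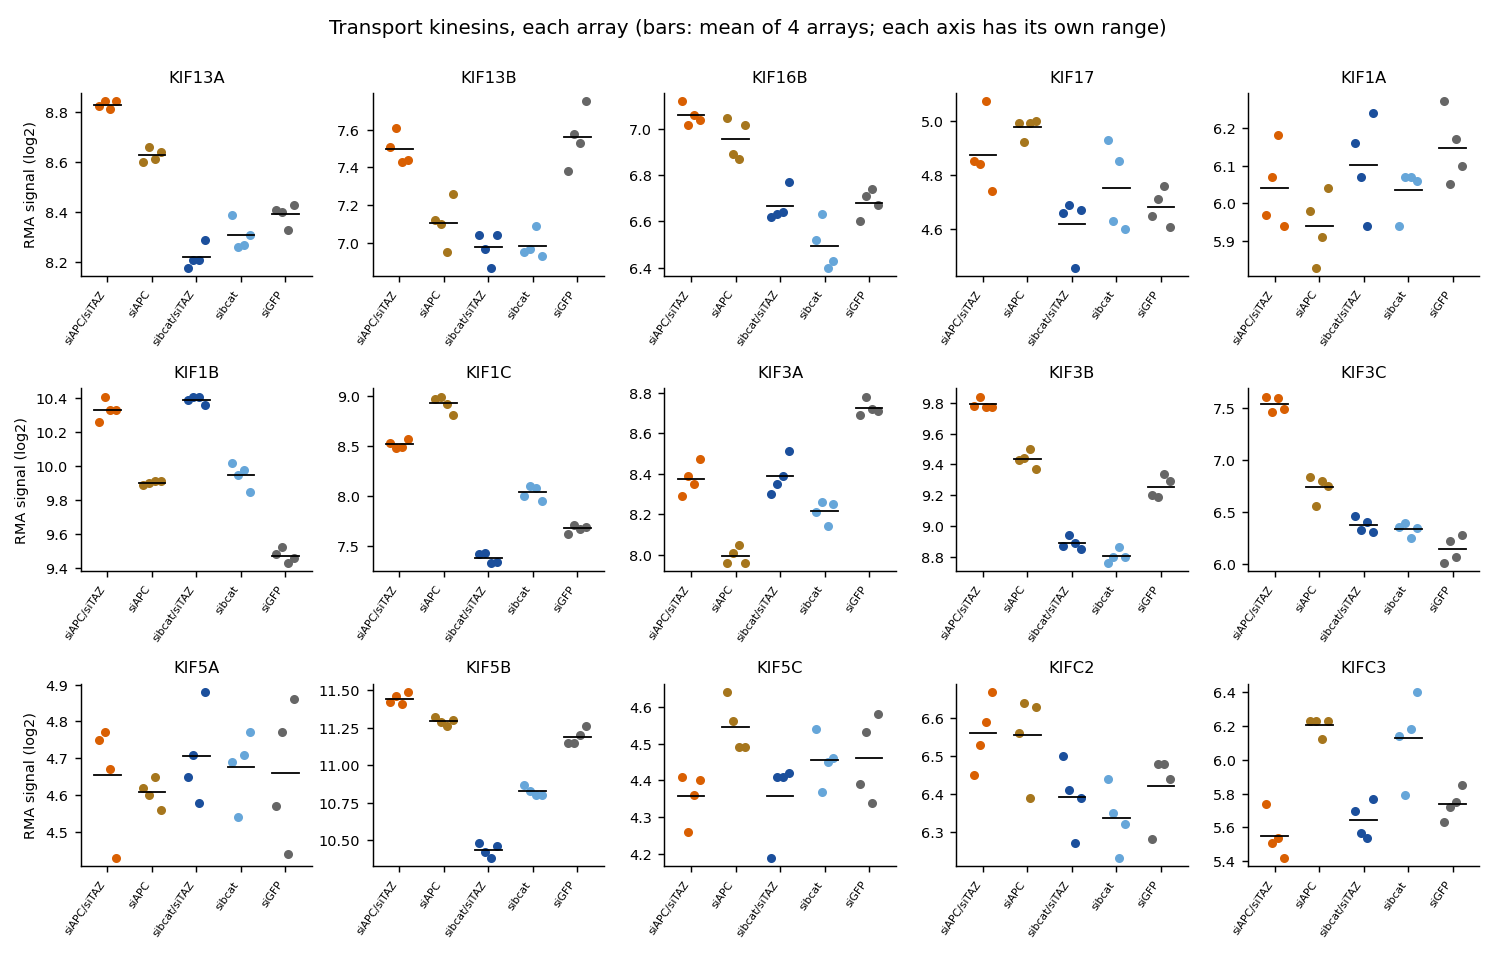
Log2 signal of each of the 15 transport kinesins on all 20 arrays, by group, with a bar at the group mean (each panel has its own vertical range). KIF1C peaks in siAPC, between 8.81 and 8.99, KIF3C in siAPC/siTAZ, between 7.46 and 7.61, and KIF3A in siGFP, between 8.69 and 8.78, so no single order of groups runs through the panels.

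Of the 14 other kinesins, 8 were not called in any of the 4 comparisons with a single or TAZ siRNA change. In siAPC 2 rose and 2 fell, where 21.3% and 18.7% of all genes did, in sibcat 1 rose and 2 fell, where 21.4% and 15.7% did, and in siAPC/siTAZ against siAPC 2 rose and 2 fell, where 20.7% and 22.8% did. In sibcat/siTAZ against sibcat 4 rose and none fell, where 18.0% and 13.7% did. These counts were below the shares of all genes except the rises in sibcat/siTAZ. KIF2A, a microtubule depolymerase of spindle poles, read 10.16, 10.13, 10.14 and 10.10 in siAPC/siTAZ, 9.64, 9.62, 9.70 and 9.68 in siAPC, 9.91, 9.83, 9.84 and 9.84 in sibcat/siTAZ, 9.76, 9.75, 9.62 and 9.56 in sibcat and 9.50, 9.46, 9.53 and 9.48 in siGFP. Its siGFP arrays were below all others and its siAPC/siTAZ arrays above all others. KIF2A rose by 0.17 ± 0.043 in siAPC, 0.18 ± 0.043 in sibcat, 0.47 ± 0.043 in siAPC/siTAZ against siAPC and 0.18 ± 0.043 in sibcat/siTAZ against sibcat. It thus rose with TAZ siRNA in APC-depleted cells, where its relative KIF2C fell.

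KIF9, a motor of motile cilia, read 7.69, 7.73, 7.77 and 7.66 in siAPC/siTAZ and 8.06, 8.05, 7.90 and 8.06 in siAPC. Its arrays read 8.70, 8.53, 8.53 and 8.55 in sibcat/siTAZ, 8.47, 8.32, 8.46 and 8.49 in sibcat and 8.51, 8.51, 8.56 and 8.64 in siGFP. Arrays with APC siRNA were below all others, and the siAPC/siTAZ arrays were the lowest. KIF9 fell by 0.54 ± 0.052 in siAPC and by a further 0.31 ± 0.052 with TAZ siRNA (adjusted p = 5.41e-08 and 6.4e-05). Its rise of 0.14 in sibcat/siTAZ against sibcat (adjusted p = 0.0443) was lost when any of 11 arrays was left out (adjusted p 0.0507 to 0.166): siGFP C, siAPC A, B and D, siAPC/siTAZ A and B, sibcat A, B and C, and sibcat/siTAZ A and D.

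KIF21A, which restrains microtubule growth at the cell cortex, averaged 9.55 ± 0.083 in siAPC/siTAZ, 9.73 ± 0.078 in siAPC, 9.48 ± 0.051 in sibcat/siTAZ, 9.31 ± 0.049 in sibcat and 9.27 ± 0.066 in siGFP. It rose in siAPC by 0.45 ± 0.050 (adjusted p = 3.16e-07). With TAZ siRNA it fell by 0.17 in the siAPC background and rose by 0.17 in the sibcat background, the directions of most mitotic kinesins. KIF6 averaged 5.53 ± 0.23, 5.15 ± 0.12, 5.43 ± 0.20, 5.20 ± 0.074 and 5.53 ± 0.17 in the same order of groups. It fell in siAPC (-0.38) and sibcat (-0.33) and rose in siAPC/siTAZ against siAPC (0.38), and its call in sibcat was lost without siGFP replicate A or B or sibcat replicate A or C (adjusted p 0.0511 to 0.0977). KIF24, a centriolar motor that keeps cilia from forming, averaged 2.95 ± 0.19, 2.92 ± 0.057, 3.39 ± 0.12, 3.00 ± 0.15 and 3.07 ± 0.15 in that order. It rose by 0.39 in sibcat/siTAZ against sibcat at a mean of 3.07, below the array medians. KIF19 fell by 0.28 in sibcat with overlapping arrays, a call lost without siGFP replicate B or C or sibcat replicate A or B (adjusted p 0.0601 to 0.0867). KIF7, a ciliary regulator of Hedgehog signalling, KIF12, KIF21B, KIF25, KIF26A, KIF26B, KIF27 and KIF2B did not pass in these 4 comparisons.

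**Figure D5:**
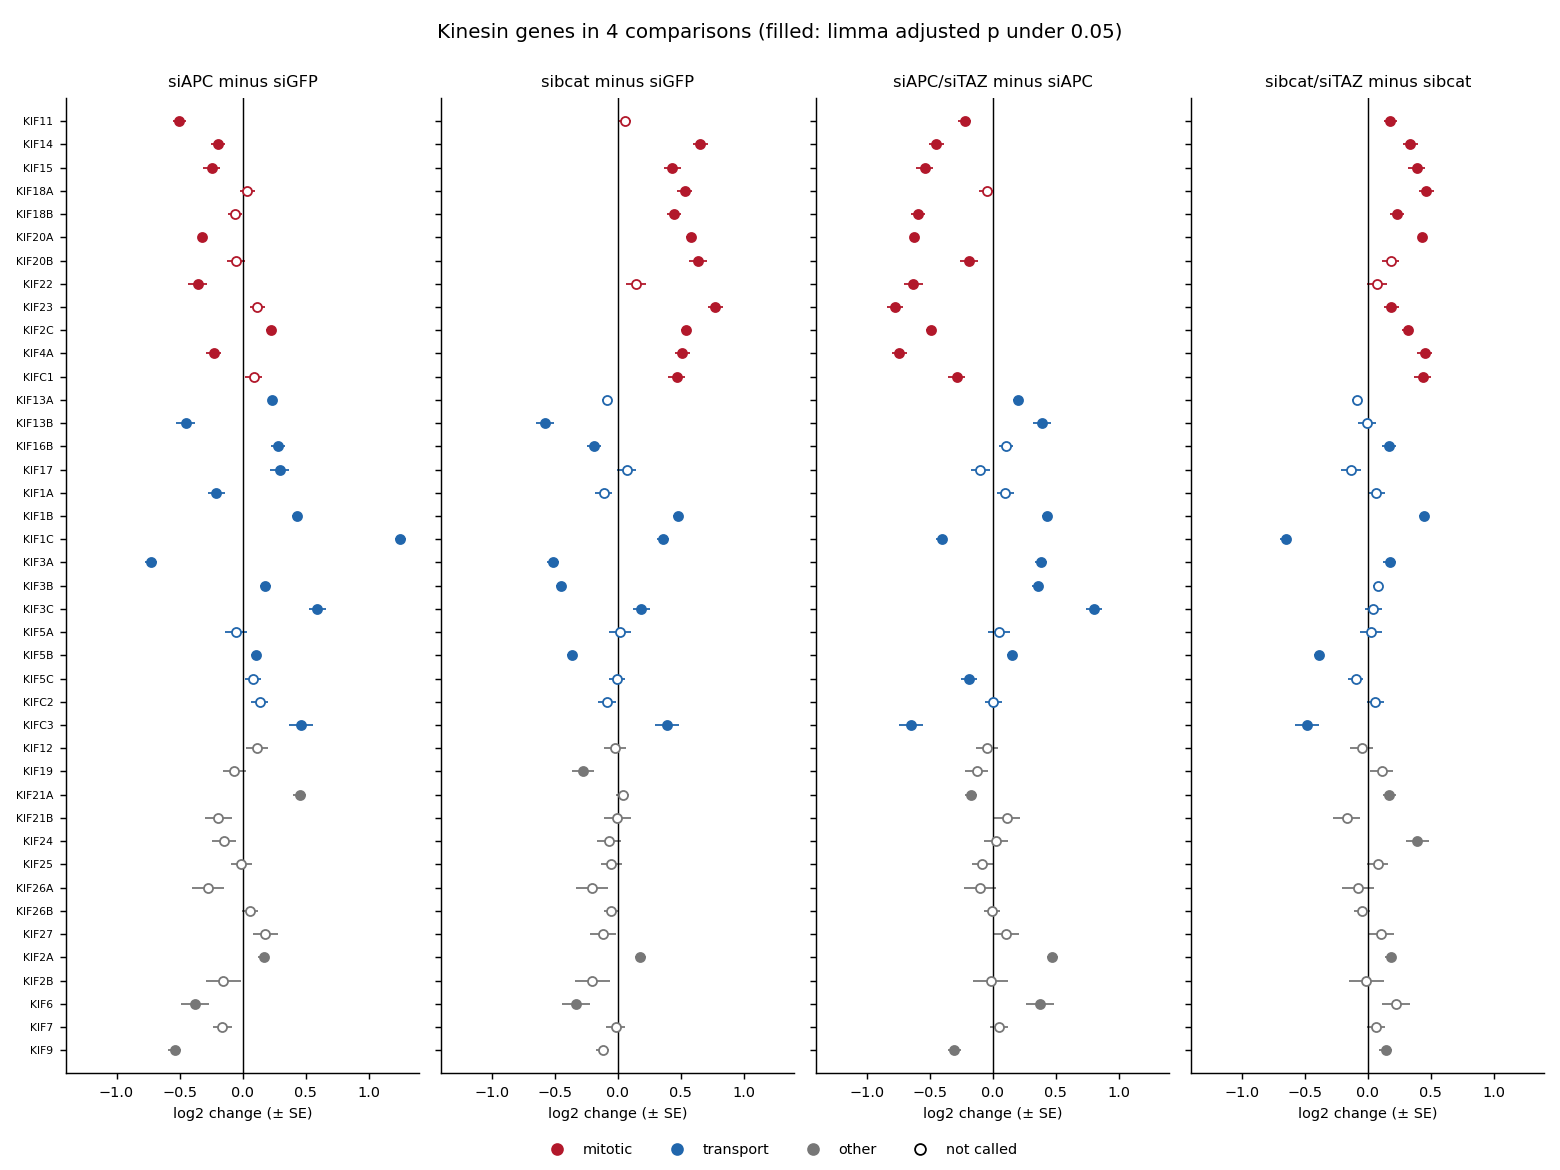
Log2 change ± SE of all 41 kinesin genes in 4 comparisons, with mitotic genes at the top (red), transport genes in the middle (blue) and others below (grey); filled points passed limma's adjusted p of 0.05. The red points lie right of zero in both sibcat panels and left of it in siAPC/siTAZ minus siAPC, and KIF1C at 1.25 in siAPC minus siGFP is the point farthest from zero.

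Of 18 measured partners of transport kinesins, 4 rose and 7 fell in siAPC, where 21.3% and 18.7% of all genes did, and 5 rose and 4 fell in sibcat, where 21.4% and 15.7% did. In siAPC/siTAZ against siAPC 6 rose and 1 fell, where 20.7% and 22.8% did, and in sibcat/siTAZ against sibcat 4 rose and 1 fell, where 18.0% and 13.7% did. MAP7, which recruits KIF5 motors to microtubules, fell by 0.71 ± 0.062 in sibcat (adjusted p = 1.74e-08), and TRAK1, the adaptor that links KIF5 motors to mitochondria, rose by 0.54 ± 0.046 in siAPC/siTAZ against siAPC (adjusted p = 5.26e-09). Among 21 genes of dynein and dynactin, the opposing motor and its activator, 10 rose and 5 fell in siAPC, 6 rose and 7 fell in sibcat, 6 rose and 11 fell in siAPC/siTAZ against siAPC, and 3 rose and 5 fell in sibcat/siTAZ against sibcat, to be read against those same shares of all genes. DYNC1H1, the dynein heavy chain, rose in siAPC (0.80) and in sibcat (0.465). With TAZ siRNA it fell in the siAPC background (-0.24) and in the sibcat background (-0.59). BICD2, a dynein adaptor, rose with TAZ siRNA by 0.81 and 0.69 in the siAPC and sibcat backgrounds.

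Of 16 transcriptional regulators of cell cycle genes, 3 rose and 8 fell in siAPC/siTAZ against siAPC, where 20.7% and 22.8% of all genes did. In sibcat/siTAZ against sibcat 4 rose and 5 fell, where 18.0% and 13.7% did. In sibcat 7 rose and none fell, where 21.4% and 15.7% did, and in siAPC 4 rose and 4 fell, where 21.3% and 18.7% did. FOXM1, an activator of G2 and mitotic genes, rose by 0.72 ± 0.061 in sibcat (adjusted p = 1.07e-08) and by 0.44 in sibcat/siTAZ against sibcat, and fell by 0.17 in siAPC/siTAZ against siAPC (adjusted p = 0.0311). E2F8, a repressor, fell in both with TAZ siRNA, by 2.00 ± 0.081 in the siAPC background and 0.28 ± 0.081 in the sibcat background. NFYB, a subunit of NF-Y, fell likewise by 0.80 and 0.57, and E2F7 rose by 0.99 in siAPC.

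Probe sets of the same gene were compared where there were several. The 41 genes had 85 probe sets carrying 1 gene symbol, with 1 for 15 genes and several for 26, and 9 genes had a mean below the array median, where small changes are hard to read. Beside KIF1B and KIF1C, KIF26B had a further probe set that rose by 0.43 in siAPC and 0.68 in siAPC/siTAZ against siAPC, where the one used did not pass. A further probe set of KIF16B fell by 0.27 in siAPC/siTAZ against siAPC, where the one used was 0.10, and by 0.27 in siAPC/siTAZ against siGFP, where the one used rose by 0.38, and one of KIF13A fell by 0.34 in sibcat/siTAZ against sibcat, where the one used was -0.09. A further probe set of KIF23 fell by 0.76 in siAPC/siTAZ against siAPC and rose by 0.85 in sibcat, against -0.78 and 0.78 with the one used.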

How the data were processed

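Total RNA of 20 samples was hybridised to Affymetrix HG-U133 Plus 2.0 arrays, 1 array each. The deposited values are signals from RMA, per the submitters' processing notes, and the sources used here do not give its version; their range, 1.71 to 14.35, is that of log2 signals. Array medians between 5.07 and 5.11 show how closely the deposited log2 signals were aligned. Of 54675 probe sets, 41091 carried 1 gene symbol and were used, and 1801 carried several and were left out. limma 3.58.1 in R 4.3.3 fitted the 5 groups over all 20 arrays (residual df 15), with Benjamini-Hochberg adjustment over 19775 genes. No sample was dropped. Values per array or means per group were given for all 12 mitotic kinesins and up to 6 transport kinesins by smallest adjusted p. They were also given for up to 4 others per comparison with no overlap of arrays. The remaining kinesins were given by their changes or by name alone. Up to 3 partners per list and comparison were named, by the smallest adjusted p. Members, lists and tests were chosen with earlier results of these data known. Replicate letters were checked for pairing: over 40 same-letter pairs the residual correlation was 0.027 in the median (-0.0879 to 0.156). For 9 of 20 arrays, the mean correlation with arrays of other groups was highest for their own letter. With 4 letters and no pairing, about 1 array in 4 would do so, and 9 of 20 is above that share. The letters were not taken to pair samples, though the labels do not settle it. The fit was tested on simulated data first. The alternatives were another choice of probe set, low-signal filters, other scalings, other fits, the replicate block and leaving out each array.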

Additional observations from a re-analysis of the deposited data

Results flagged for a closer look

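Within groups of 4 arrays, 13 of 205 gene and group pairs held 1 array far from the other three by Dixon's test at 95%, which chance flags in about 1 of 20 groups. KIF12 was high on siGFP replicate D, at 5.79, with the others between 5.71 and 5.72. KIF16B was high on sibcat/siTAZ replicate D, at 6.77, with the others between 6.62 and 6.64. KIF18A was high on siGFP replicate C, at 7.21, with the others between 7.14 and 7.15. KIF21B was high on sibcat/siTAZ replicate A, at 3.93, with the others between 3.69 and 3.72. KIF2A was high on sibcat/siTAZ replicate A, at 9.91, with the others between 9.83 and 9.84. KIF3B was high on siAPC/siTAZ replicate B, at 9.84, with the others between 9.77 and 9.78. KIF9 was high on sibcat/siTAZ replicate A, at 8.70, with the others between 8.53 and 8.55. KIF17 was low on siAPC replicate B, at 4.92, with the others between 4.99 and 5.00. KIF17 was low on sibcat/siTAZ replicate C, at 4.46, with the others between 4.66 and 4.69. KIF1A was low on sibcat replicate A, at 5.94, with the others between 6.06 and 6.07. KIF5C was low on sibcat/siTAZ replicate A, at 4.19, with the others between 4.41 and 4.42. KIF9 was low on siAPC replicate C, at 7.90, with the others between 8.05 and 8.06. KIFC3 was low on siAPC replicate C, at 6.12, with the others of 6.23. Of these arrays, sibcat/siTAZ replicate A stood out for 4 genes and siAPC replicate C for 2, and all values are log2 signals.

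The log2 effect of TAZ siRNA differed between the siAPC and the sibcat background, by limma's test of the difference itself, in 23 kinesin genes, with the effect in siAPC minus that in sibcat given in parentheses. Among mitotic kinesins these were KIF4A (-1.19), KIF20A (-1.06), KIF23 (-0.96), KIF15 (-0.93), KIF18B (-0.82), KIF2C (-0.80), KIF14 (-0.78), KIFC1 (-0.72), KIF22 (-0.70), KIF18A (-0.51), KIF11 (-0.40) and KIF20B (-0.37). Among transport kinesins they were KIF3A (0.21), KIF1C (0.25), KIF3B (0.27), KIF13A (0.29), KIF13B (0.40), KIF5B (0.54) and KIF3C (0.76). Among the others they were KIF9 (-0.45), KIF24 (-0.37), KIF21A (-0.34) and KIF2A (0.29). Among the genes that passed, the mitotic differences were all negative and the transport differences all positive, where 15.5% and 12.2% of all genes passed in those directions. Over all 15 transport kinesins, passed or not, the difference was positive in 10 and negative in 5.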

How the results depend on the processing

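No call of a kinesin changed direction for the probe set used. Other probe sets passed in the opposite direction for KIF1B in 5 comparisons (-1.26 to -0.22, among them -0.73 in sibcat and -0.53 in sibcat/siTAZ against sibcat), KIF1C in sibcat (-0.25), KIF16B in siAPC/siTAZ against siGFP (-0.27) and KIF20B in sibcat/siTAZ against siGFP (-0.19). Of 185 calls of kinesin genes over the 8 comparisons, 184 held with arrays centred on their medians, 182 with a trended robust variance, 181 with every probe set tested on its own, 178 with quantile normalization repeated, 176 with only the arrays of the groups compared and 169 with the mean of all probe sets, and all 175 and 167 that passed minimum mean signals of 5 and 6 held. Leaving out 1 array kept 3600 of 3700. Calls lost under a scaling or a probe set choice included KIF20B in siAPC/siTAZ against siAPC and KIF23 in sibcat/siTAZ against sibcat (quantile normalization repeated), and KIF1B in sibcat/siTAZ against sibcat (mean of all probe sets); the cause was not tested. With the replicate block, 183 of 185 calls held, and KIF24 in the test of the difference and KIF9 in sibcat/siTAZ against sibcat were lost. The number called over the 8 comparisons was 19 to 26, against 20 to 25 without the block. The letters were not taken to pair the samples. Medians of the transport kinesins moved with the genes that entered. With the mean of all probe sets they were 0.056 in siAPC/siTAZ minus siGFP, 0.12 in siAPC minus sibcat and 0.11 in the difference of TAZ siRNA effects. With a minimum mean of 5 they were 0.32 and 0.23 in the first and last of these. With a minimum mean of 6 they were 0.20 in siAPC/siTAZ minus siAPC, 0.38 in siAPC/siTAZ minus siGFP, -0.17 in sibcat/siTAZ minus siGFP, 0.32 in siAPC minus sibcat and 0.25 in the difference of TAZ siRNA effects. The mitotic median in siAPC minus sibcat was -0.53 with the mean of all probe sets. Genes with low signal have larger errors relative to their changes, and 9 kinesins had a mean below the array median.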
